A study of Mus musculus with 19 samples.

Results

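RNA-seq libraries of 129S1/SvImJ induced pluripotent stem cells (iPSC) kept in standard ESC/LIF medium were compared with libraries of embryonic stem cells (ESC) kept in 2iS medium, 7 libraries of the 19 in the series. They were chosen by the titles of the samples. The source names and characteristics give other conditions to all of these libraries but the NOD ESC and were tried as an alternative grouping.

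The first group held 4 iPSC clones: male clone 1 at passage 21, female clone 5 at passage 19, female clone 8 at passage 17 and male clone 17 at passage 20. All 4 were made from 129S1/SvImJ embryonic fibroblasts with a Cre-excisable lentivirus that carries Oct4, Klf4, Sox2 and Myc behind a constitutive promoter. According to the study's methods, these lentiviral factors were not removed. Fibroblasts were depleted before harvest. The second group held 3 male ESC lines at passage 6, of which 1 was NOD/ShiLtJ, 1 WSB/EiJ and 1 129S1/SvImJ, derived and kept in another laboratory. ESC/LIF medium holds serum and leukemia inhibitory factor (LIF), and 2iS is the same medium with inhibitors of GSK3B and of MEK. The medium of the ESC lines is described as ESC/LIF with both inhibitors and with sodium pyruvate, which is not named for that of the iPSC. The question was how far standard iPSC lie from ESC of the inhibitor medium. Medium, origin of the line, laboratory, passage, sex and strain differ together between the groups and cannot be told apart in this comparison. Male clones 1 and 17 were also sequenced at passages 31 and 30 after transfer to 2iS, and these 2 libraries are set beside the first 7. In the test between media, medium and passage change together and cannot be told apart, and the clones in 2iS are male while those in ESC/LIF are of both sexes. The spread behind each p-value is that between clones or between lines, with 1 library each.

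Mouse pluripotent cells in serum and LIF receive opposing signals. LIF acts through STAT3 to keep the naive network of Pou5f1, Nanog, Esrrb and Klf factors running, while fibroblast growth factor signals through MEK and ERK toward differentiation. A MEK inhibitor lowers the transcripts that ERK switches on, such as the Sprouty and Dusp feedback genes, and a GSK3 inhibitor stabilizes beta-catenin. Reprogrammed cells start as fibroblasts, whose typical transcripts are those of the extracellular matrix.

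Gene counts summed to between 92996 and 226794 read pairs a library, which was 1.15% to 1.50% of the uniquely aligned pairs. This share was 1.46% ± 0.0348 (SD, n = 4) in iPSC and 1.26% ± 0.103 (SD, n = 3) in ESC, with no overlap, and an exact two-sided permutation test gave p = 0.0571, the smallest that 4 against 3 allows. Levels are given as read pairs per 1000000 counted on genes (CPM). A count of 3 corresponded to 13.2 to 32.3 CPM in a single library. Genes with exons on the opposite strand of another gene made up 24.6% of the genes matched to the annotation and held 64.4% of the counts. The strand setting of the counting is not given in the sources used here, so that read pairs of such a gene and of its partner cannot be told apart. Of the 100 genes with the most counts in the 7 libraries, 96 were matched, and 86 of these (89.6%) had such exons. Whether read pairs were counted on the strand opposite to their gene was not tested, so that a level may not be that of the gene named. The Y-linked gene Ddx3y had 16, 0, 0 and 9 read pairs in clones 1, 5, 8 and 17, with none in the clones labelled female, and 3, 9 and 9 in the NOD, WSB and 129 ESC. The same order of libraries is used for all values below.

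**Figure D1:**
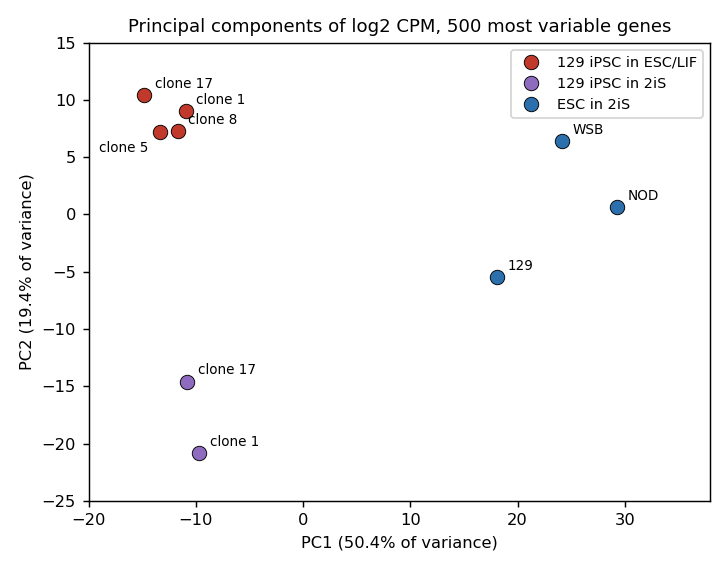
First and second principal component of log2 CPM (500 most variable genes) for the 9 libraries, 1 point per library, with clone or strain beside it. The 3 ESC lie at 18.1 to 29.3 on the first component, which takes 50.4% of the variance, and all 6 iPSC at -14.9 to -9.73, while the second component (19.4%) holds iPSC in ESC/LIF at 7.16 to 10.4 and iPSC in 2iS at -20.8 and -14.6.

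Between iPSC in ESC/LIF and ESC in 2iS, several genes of the extracellular matrix, such as Col1a1, Col12a1 and Fbln2, were counted in every ESC and at or near 0 in iPSC, while Ank1, Spry4, Mterfd2 and Myc had the opposite pattern. Not all matrix genes were lower: the collagens Col18a1 and Col6a4 were higher in iPSC. Of 2579 genes that passed the filter on low counts, 315 (12.2%) had an adjusted p under 0.05 in edgeR's quasi-likelihood test. In iPSC, 100 genes (3.88%) were higher and 215 (8.34%) lower. For 292 of the 315 all 4 iPSC lay on one side of all 3 ESC, as they did for 607 (23.5%) of all genes tested. The median absolute log2 difference of the 315 was 1.61, against 0.38 over all genes tested. The split by direction rested on the scaling: with uniquely aligned read pairs as library size, the median of all genes moved by 0.26 on the log2 scale, and 246 genes were higher and 142 lower. Of the called genes matched to the annotation 58.6% had exons on the opposite strand, against 53.5% of the tested genes, and 132 genes passed when these were left out.

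For clones 1 and 17 moved to 2iS, 250 of 3008 genes (8.31%) differed from ESC in 2iS, and 64 of 3008 (2.13%) differed between iPSC in ESC/LIF and iPSC in 2iS. These comparisons share libraries with the first. The iPSC 2iS group holds 2 libraries, and without clone 1 or clone 17 in 2iS the first of these numbers became 42 or 68 and the second 12 or 34, where the lone library is assumed to vary like the other groups. In the 4 libraries of clones 1 and 17 alone, which are the same lines in both media, 102 of 2160 genes differed between media with the clone as replicate block and 192 without it.

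**Figure D2:**
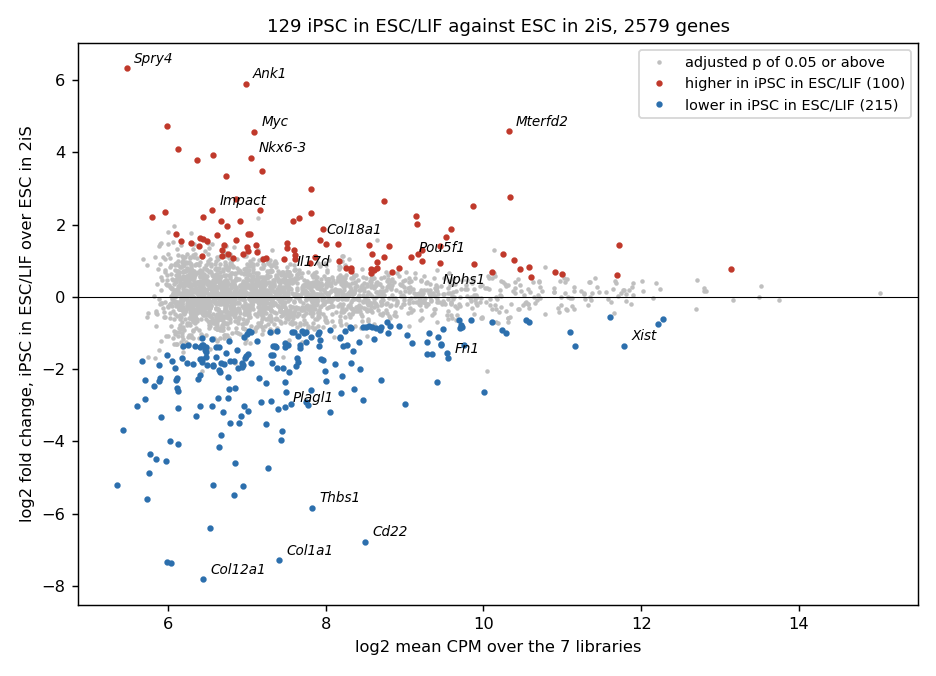
Log2 fold change of iPSC in ESC/LIF over ESC in 2iS (vertical) against the log2 mean CPM over the 7 libraries (horizontal), 1 point per gene, for 2579 genes. The 100 higher (red) and 215 lower (blue) genes lie at all levels, and fitted values of genes at 0 in a group, such as Spry4 and Col12a1, are no estimates of the fold.

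Ank1 and Myc were far above ESC in the iPSC kept in ESC/LIF, while Nphs1 and Il17d, which also had many read pairs, were not. Id2 was too low for the test. These 5 genes were marked out with earlier results of these data known. Ank1 and Myc passed the filter on low counts through the iPSC, so that their direction was set by that filter.

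Ank1 (chr8:22974844-23150497, plus strand) encodes an ankyrin that ties membrane proteins to the spectrin skeleton. It had 114, 11, 24 and 9 read pairs in the 4 iPSC, or 555, 83.8, 132 and 111 CPM, and 0, 0 and 1 in the 3 ESC. Every iPSC lay above every ESC, and clone 1 was far above the other clones. The log2 difference was 5.91 ± 1.12 (SE, adjusted p = 0.00284), and the ratio of the summed levels was 89.8 (15.9 to 3568), with the 95% exact interval for counting error only. Clones 1 and 17 in 2iS had 1 and 0 read pairs. The fall between media passed the test (5.46 ± 1.19, adjusted p = 0.0216), while at this depth no difference was detectable between iPSC in 2iS and ESC (0.44 ± 2.52, adjusted p = 0.938). Without clone 1 or clone 17 in 2iS the difference between media no longer passed (adjusted p = 0.167 and 0.225), and without the 129 ESC, the only ESC with a read pair, the first log2 difference was 7.98. The gene that follows Ank1 on the same strand, 2771 bases further on, is the homeodomain factor Nkx6-3 (chr8:23153269-23158948, plus strand). Its levels were 180.0, 251, 324 and 135 CPM in iPSC in ESC/LIF, 46.9 and 72.4 in iPSC in 2iS and 10.04, 0 and 29.1 in ESC. Clone 8 rather than clone 1 was highest for Nkx6-3. It was higher in iPSC by 3.86 ± 0.57 (adjusted p = 4.53e-04, and by 5.26 without the 129 ESC), and the difference between media was 1.89 ± 0.49 (adjusted p = 0.0542).

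Myc (chr15:61985391-61990374, plus strand), a transcription factor of growth and one of the reprogramming factors, had 287, 221, 203 and 221 CPM in the 4 iPSC and 0, 9.65 and 14.5 in the 3 ESC, from 59, 29, 37 and 18 and 0, 1 and 2 read pairs. The groups did not overlap, and the log2 difference was 4.57 ± 0.50 (adjusted p = 5.35e-05), with a ratio of summed levels of 27.1 (9.08 to 133). Without the 129 ESC the log2 difference was 5.30. The 2 clones in 2iS had a like level, at 328 and 137 CPM. They differed from ESC by 4.56 ± 0.61 (adjusted p = 3.08e-04), and the difference between media was 0.02 ± 0.36 (adjusted p = 0.996). Read pairs of the lentiviral factors and of the genes of the cell cannot be told apart in these counts.

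Nphs1 (chr7:30458315-30487223, plus strand) encodes nephrin, an adhesion protein of the kidney filter. Its levels were 851, 526, 715 and 763 CPM in iPSC in ESC/LIF and 843, 695 and 312.4 in ESC, and these ranges overlapped (0.20 ± 0.29, adjusted p = 0.709). In the 2 clones in 2iS it had 0 and 3 read pairs. iPSC in 2iS lay below ESC in 2iS by a log2 difference of -5.47 ± 0.65 (adjusted p = 1.38e-04) and below iPSC in ESC/LIF, with 5.67 ± 0.63 in the direction ESC/LIF over 2iS (adjusted p = 1.30e-04). The last call held without clone 1 in 2iS, at 4.82 (adjusted p = 0.00306), and without clone 17 in 2iS, at 9.53 (adjusted p = 0.00100). Nphs1 overlaps Nphs1os on the opposite strand over 597 exonic bases.

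Il17d (chr14:57524777-57543166, plus strand), a cytokine of the interleukin 17 family, had the same order of groups. It reached 282, 168, 109.9 and 332 CPM in iPSC in ESC/LIF, 110.4, 251 and 43.6 in ESC and 18.7 and 16.09 in the clones in 2iS. The first comparison gave 0.70 ± 0.48 (adjusted p = 0.401), iPSC in 2iS against ESC -2.86 ± 0.85 (adjusted p = 0.0465), and the media 3.55 ± 0.77 (adjusted p = 0.0213). The second was lost without the NOD ESC or the WSB ESC (adjusted p = 0.0733 and 0.160), and both the second and the last were lost without clone 1 in 2iS (adjusted p = 0.235 and 0.249) or clone 17 in 2iS (0.248 and 0.219). Against the 129 ESC alone, the lowest of the ESC in both genes, the log2 difference was 1.18 for Nphs1 (adjusted p = 0.0345, range over 17 alternatives 0.0345 to 0.945) and 2.28 for Il17d (adjusted p = 0.0395, range over 16 alternatives 0.0395 to 0.808). Here and for other genes, a p against the 129 ESC alone rests on the spread of the iPSC clones, and that 1 library is assumed to vary like them.

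Id2, a helix-loop-helix protein that blocks DNA binding by its partners, had 4, 6, 5 and 2 read pairs in iPSC in ESC/LIF, 0 in each ESC and 1 and 2 in iPSC in 2iS. All 4 iPSC lay above the ESC, and the summed level was at least 3.22-fold higher than the 3 counts over the group that a count of 0 allows. Id2 did not pass the filter. With no filter its adjusted p was 0.0155, with 17 libraries in the fit 0.0427 and in DESeq2 0.152.

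**Figure D3:**
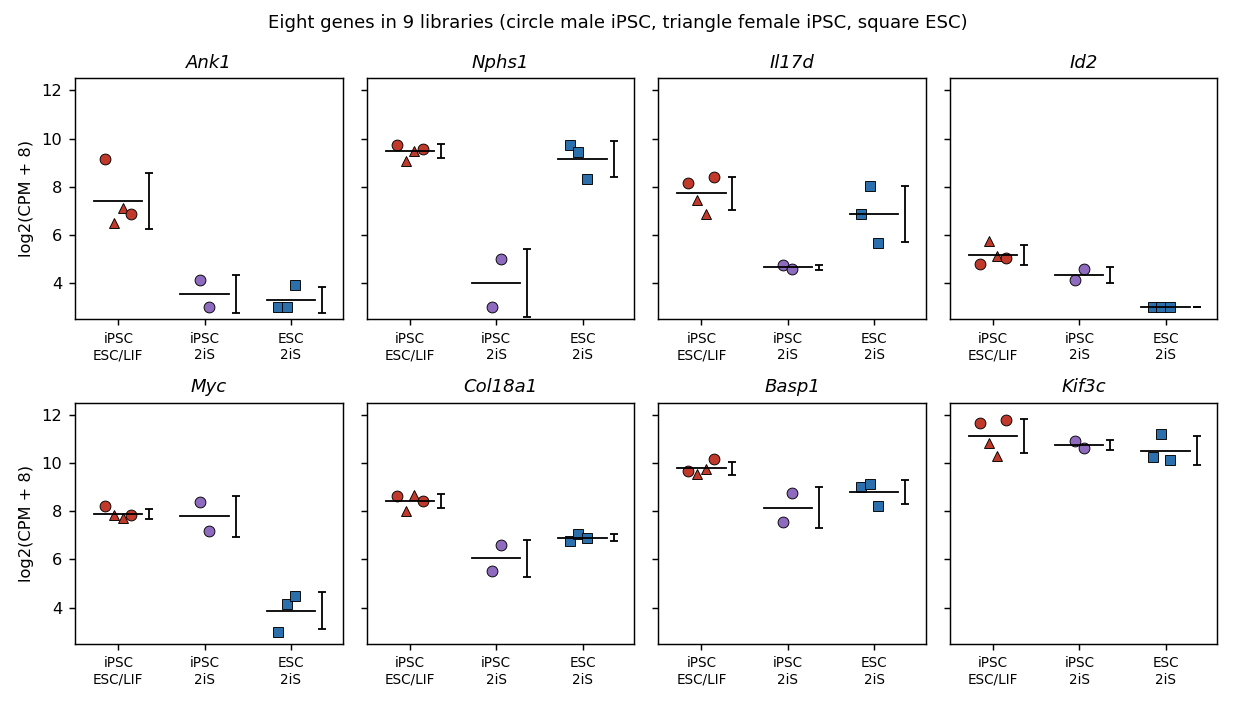
Levels of 8 genes as log2(CPM + 8) in 4 iPSC in ESC/LIF, 2 iPSC in 2iS and 3 ESC in 2iS, 1 point per library, with the mean as a line and the SD as a bar beside it. Ank1, Col18a1 and Basp1 are highest in iPSC in ESC/LIF, Nphs1 and Il17d are low in iPSC in 2iS alone, and Myc is low in ESC alone.

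The study's text links 3 further genes to the transfer of 129S1/SvImJ iPSC into 2iS. Since they were chosen on libraries used here, their direction is not independent evidence. Col18a1 (chr10:77052178-77166548, minus strand), a basement membrane collagen, had 384, 251, 396 and 332 CPM in iPSC in ESC/LIF and 100.4, 125 and 109 in ESC, with no overlap. The log2 difference was 1.58 ± 0.27 (adjusted p = 0.00137). At 37.5 and 88.5 CPM in 2iS the clones lay below all 3 ESC, without passing the test against ESC (-0.79 ± 0.44, adjusted p = 0.29), and the media differed by 2.38 ± 0.38 (adjusted p = 0.00185, and 0.118 without clone 1 in 2iS). Basp1, a membrane-bound protein of growth cones, had 798, 731, 863 and 1132 CPM in iPSC in ESC/LIF, 502, 559.5 and 291 in ESC and 178 and 426 in iPSC in 2iS. It was higher in iPSC in ESC/LIF than in ESC by 0.94 ± 0.25 (adjusted p = 0.0235). This call was lost without the 129 ESC (adjusted p = 0.0825) and without clone 17 (0.0656), in a range of 0.000468 to 0.0825 over 17 alternatives. The media differed by 1.49 ± 0.34 (adjusted p = 0.0248), and this call was lost without clone 17 in ESC/LIF (adjusted p = 0.0588) and without clone 1 in 2iS (0.448). Kif3c, a kinesin motor, had 3215, 1821, 1242 and 3507 CPM in iPSC and 1205, 2325 and 1104 in ESC, which overlapped (0.63 ± 0.34, adjusted p = 0.261). Its 2 highest libraries were the male clones in ESC/LIF. Its difference between media was 0.46 ± 0.36 (adjusted p = 0.666) over all clones. In the male clones alone it was 0.93 with the clone as replicate block (adjusted p = 0.0340) and also 0.93 without the block (3.36e-04). Over the 4 ESC/LIF clones and 3 ESC, 3 of 17 alternatives put Kif3c past the threshold (adjusted p = 0.00545 to 0.770). Kif3c overlaps 1110002L01Rik on the opposite strand over 2617 exonic bases. That gene had 17, 5, 7 and 7 read pairs in iPSC in ESC/LIF and 18, 13 and 10 in ESC. Other named genes, such as Ank1 (862 bases), Pou5f1 (317) and Lin28a (234), also had exons overlapped on the opposite strand. Of the 6 genes that the study's text links to the transfer (Nphs1, Ank1, Il17d, Col18a1, Kif3c and Basp1), 3 were higher and 0 lower than in ESC. Of all genes tested, 3.88% were higher and 8.34% lower. The median log2 difference of the 6 was 0.82, against 0.03 over all genes tested. All 6 were chosen by the study on libraries used here, so that this count is not independent evidence.

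**Figure D4:**
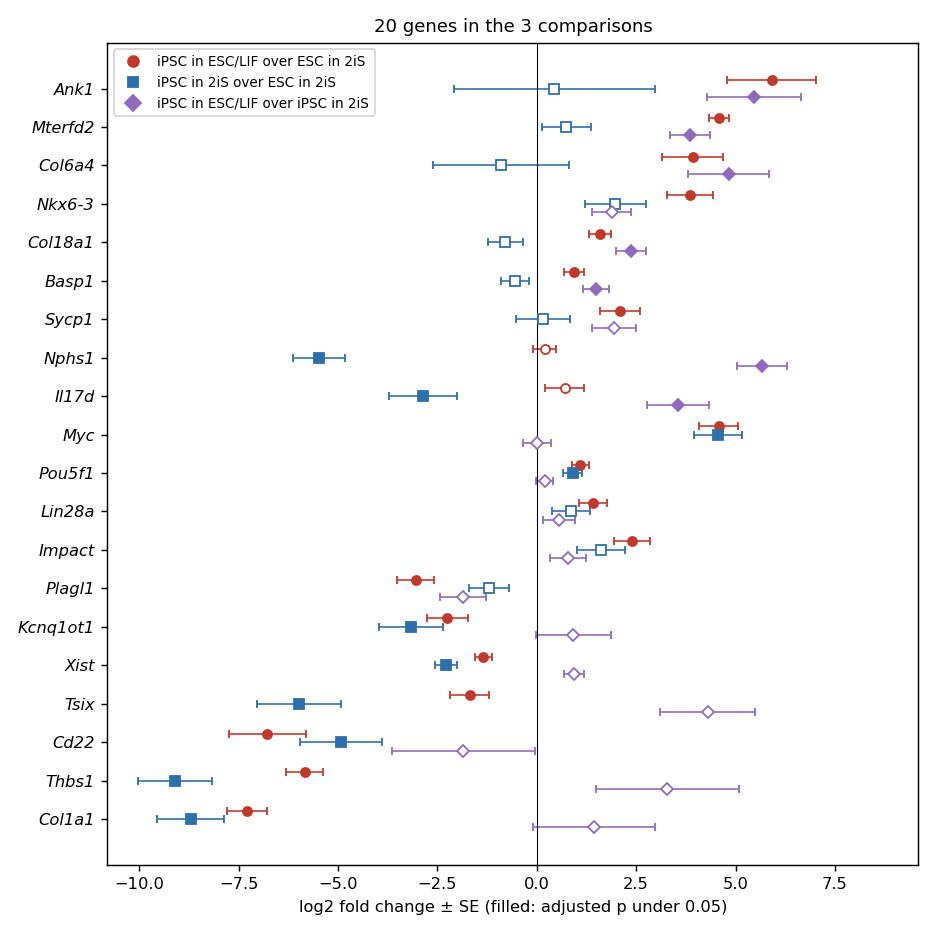
Log2 fold change with its SE for 20 genes in the 3 comparisons, 1 row per gene, where a filled symbol has an adjusted p under 0.05. Nphs1 and Il17d are filled only in the comparisons with iPSC in 2iS, while Myc and Pou5f1 are filled in both comparisons with ESC and lie near 0 between media.

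Among the genes higher in iPSC, the 8 with the largest change and no overlap were Spry4, Ank1, Adra1a, Mterfd2, Myc, AU015836, Col6a4 and Nkx6-3. All but Mterfd2 had few or no read pairs in ESC and passed the filter on low counts through the iPSC. Their direction was thus set by that filter and is no independent evidence. Mterfd2 (chr1:93299211-93305915, minus strand), a factor of mitochondrial ribosome assembly, was the most highly counted of them. It had 2028, 2194, 1886 and 2596 CPM in the 4 iPSC and 90.4, 57.9 and 109 in the ESC. The 4 clones lay close together, and the difference was 4.59 ± 0.26 (adjusted p = 1.14e-07). In 2iS, clones 1 and 17 had 1 and 34 read pairs, and the media differed by 3.85 ± 0.50 (adjusted p = 3.48e-04), with 2.97 (adjusted p = 0.000811) without clone 1 in 2iS and 7.65 (adjusted p = 1.07e-06) without clone 17 in 2iS. It overlaps Sned1 on the opposite strand over 1855 exonic bases, and Sned1 had only 6, 1, 1 and 2 read pairs in iPSC and 2, 1 and 3 in ESC.

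Col6a4, a chain of collagen VI, had 37, 21, 9 and 20 read pairs in iPSC in ESC/LIF, 2, 1 and 0 in ESC and 1 and 0 in iPSC in 2iS. All 4 iPSC in ESC/LIF lay above the other 5 libraries. Its log2 difference was 3.92 ± 0.77 against ESC (adjusted p = 0.00335, ratio 16.5 (5.45 to 81.4), and 4.87 without the NOD ESC or 3.24 without the 129 ESC) and 4.82 ± 1.01 between media (adjusted p = 0.0186), and the second was lost without either library in 2iS (adjusted p = 0.127 and 0.215) and in DESeq2 (0.0643). Adra1a, an adrenergic receptor, had 5, 21, 25 and 9 read pairs in iPSC and 0, 1 and 0 in ESC. Its difference was 4.73 ± 1.05 (adjusted p = 0.00811, ratio 34.1 (5.89 to 1369)), and 6.86 without the WSB ESC, the only ESC with a read pair, or 4.13 without the 129 ESC. Clone 1 was the lowest of the 4 clones in CPM. The adjusted p was 0.0547 with sex as a covariate (range over 12 alternatives 1.05e-07 to 0.0547). AU015836 on the X chromosome had 10, 15, 36 and 9 read pairs in iPSC and 0, 1 and 1 in ESC (4.10 ± 0.80, adjusted p = 0.00352, ratio 19.9 (5.3 to 167)).

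The genes most reduced in iPSC were mostly those of the extracellular matrix, among them Col12a1, Fbln2, Col1a1, Thbs1 and Col13a1. These genes, and Lrrc4 and Cd22 below, were at or near 0 in iPSC and passed the filter on low counts through the ESC. Their direction was thus set by that filter and is no independent evidence. Col1a1 (chr11:94936224-94953042, plus strand), the main collagen of fibroblasts, had 32, 41 and 64 read pairs in the NOD, WSB and 129 ESC and 1, 0, 0 and 0 in the iPSC. Every ESC was high, the 129 line highest in counts, and only 1 read pair fell on the gene in all 4 iPSC. The log2 difference was -7.29 ± 0.51 (adjusted p = 1.02e-06), and the ratio of ESC to iPSC was 241 (42.6 to 9593). Leaving out clone 1, which held that read pair, moved the log2 difference to -8.62.

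Col12a1, a collagen that binds to the surface of fibrils, had 14, 23 and 34 read pairs in ESC and 0 in each iPSC. The level in ESC was thus at least 41.7-fold higher than the 3 counts over the 4 iPSC that a count of 0 allows (adjusted p = 6.38e-05). Fbln2, which encodes the matrix glycoprotein fibulin-2, had 16, 18 and 17 read pairs in ESC and 0 in each iPSC, at least 29.9-fold lower in iPSC (adjusted p = 1.44e-04). Thbs1, the matricellular protein thrombospondin-1, had 371, 502 and 676 CPM in ESC and 9.73, 7.62, 0 and 24.6 in iPSC (-5.83 ± 0.47, adjusted p = 3.77e-06). These 3 genes showed no overlap of groups, and clones 1 and 17 had at most 1 read pair on each in 2iS. Col13a1, a collagen anchored in the membrane, had 14, 10 and 18 read pairs in ESC and 0, 0, 1 and 0 in iPSC (-5.60 ± 0.73, adjusted p = 1.61e-04, ratio 73.9 (12.6 to 2989), and -6.98 without clone 8, which held the read pair).

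Lrrc4, a synaptic adhesion protein, and Cd22, a lectin of B cells, are no matrix genes. Lrrc4 had 20, 8 and 23 read pairs in ESC and 0 in each iPSC in ESC/LIF, at least 29.9-fold lower in iPSC (adjusted p = 3.26e-04). Cd22 had 2058, 232 and 218 CPM in ESC and 4.86, 15.2, 5.5 and 0 in iPSC (-6.77 ± 0.96, adjusted p = 3.21e-04). The NOD ESC stood far above the WSB and 129 ESC, which in turn lay above every iPSC, and without the NOD ESC the log2 difference was -4.93.

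**Figure D5:**
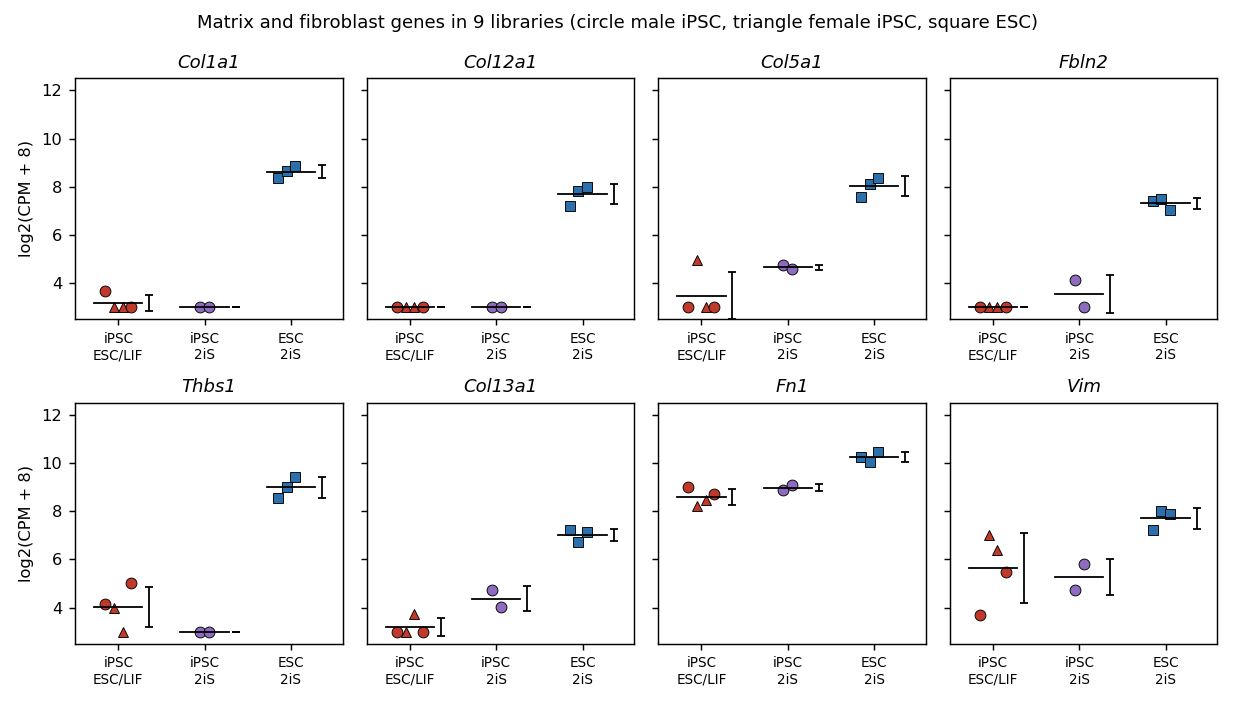
Levels of 8 matrix and fibroblast genes as log2(CPM + 8) in 4 iPSC in ESC/LIF, 2 iPSC in 2iS and 3 ESC in 2iS, 1 point per library, with the mean as a line and the SD as a bar beside it. All 3 ESC lie above all 6 iPSC for each of the 8 genes, and Fn1 alone keeps a high level in iPSC.

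Across a list of 25 genes typical of fibroblasts and their matrix, 24 had a read pair in the 7 libraries and 7 could be tested. Of these, 0 rose, 6 fell (Col1a1, Col5a1, Col12a1, Fn1, Vim and Thbs1) and 1, Tagln, did not pass. Of all genes tested, 3.88% rose and 8.34% fell. Col1a1, Col5a1, Col12a1 and Thbs1 held at most 5 read pairs over the 4 iPSC and passed the filter through the ESC. Their fall was thus set by that filter, and the count and the median are no independent evidence. The median log2 difference of the 7 was -5.49, or -5.38 with Col12a1 at its bound, against 0.03 over all genes tested. With no filter 18 of 24 were lower, against 441 of 15163 over all genes. In DESeq2 15 of 20 were lower, against 207 of 7810. With 17 libraries in the fit it was 9 of 10, against 258 of 3986. With uniquely aligned read pairs as library size it was 5 of 7, against 142 of 2579. In each case 0 of the list were higher. The summed level of the 25 genes was 566 to 691 CPM in iPSC in ESC/LIF, 572 to 724 in iPSC in 2iS and 3213 to 4759 in ESC. Another 10 of the genes that could not be tested had read pairs in ESC and none in any iPSC in ESC/LIF. Among them were Col1a2 (4, 5 and 28 in ESC), Col3a1 (4, 5 and 21), Tnc (7, 16 and 22) and Ccdc80 (7, 15 and 24). With Col12a1, 11 of the 24 listed genes with a read pair had this pattern, against 1449 of 15163 over all genes. Fibronectin (Fn1) is also made by pluripotent cells, and here it had 501, 289, 346 and 406 CPM in iPSC and 1215, 1052 and 1417 in ESC (-1.70 ± 0.22, adjusted p = 1.57e-04). Vimentin (Vim) had 1, 16, 14 and 3 read pairs in iPSC and 14, 26 and 31 in ESC (-1.84 ± 0.54, adjusted p = 0.0384). Collagen V (Col5a1) had 0, 3, 0 and 0 read pairs in iPSC and 18, 28 and 45 in ESC (-5.49 ± 0.62, adjusted p = 6.75e-05, ratio 53.4 (17.7 to 264), and -8.16 without clone 5, which held the 3 read pairs). These are bulk libraries, in which fewer cells of a type and less RNA per cell cannot be told apart. The methods describe the removal of fibroblasts for the iPSC, and a part of feeder fibroblasts in the level of these genes in ESC was not tested.

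The 250 bases before the annotated start of 3 genes are shown since they belong to genes of both directions, 2 of them lower (Col5a1 and Lrrc4) and 1 higher (Basp1) in iPSC in ESC/LIF, and hold no annotated exon. They come from RefSeq on GRCm38.p6, read 5′ to 3′ on the strand of the gene: chr2:27886175-27886424 on the plus strand for Col5a1, chr6:28831748-28831997 on the minus strand for Lrrc4 and chr15:25413765-25414014 on the minus strand for Basp1. Capitals mark matches, on either strand, to TATAAA (held by 12.4% of the 32851 windows of this length), CCAAT (held by 33.8%), GGGCGG (held by 32.7%) or TGACTCA (held by 4.46%).
Col5a1: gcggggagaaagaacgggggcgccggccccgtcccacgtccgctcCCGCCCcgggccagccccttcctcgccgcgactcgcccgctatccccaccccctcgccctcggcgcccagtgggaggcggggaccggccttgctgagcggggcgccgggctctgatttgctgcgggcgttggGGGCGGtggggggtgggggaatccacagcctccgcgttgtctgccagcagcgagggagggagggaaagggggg
Lrrc4: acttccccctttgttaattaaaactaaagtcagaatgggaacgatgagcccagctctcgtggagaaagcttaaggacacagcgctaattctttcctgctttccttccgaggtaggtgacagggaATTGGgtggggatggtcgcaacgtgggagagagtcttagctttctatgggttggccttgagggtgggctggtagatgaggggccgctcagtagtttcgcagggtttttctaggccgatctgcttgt
Basp1: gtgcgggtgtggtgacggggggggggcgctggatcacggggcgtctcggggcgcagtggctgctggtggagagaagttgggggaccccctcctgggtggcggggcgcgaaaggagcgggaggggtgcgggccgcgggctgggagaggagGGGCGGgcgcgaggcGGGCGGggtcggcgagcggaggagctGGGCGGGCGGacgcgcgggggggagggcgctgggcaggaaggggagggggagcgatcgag
The Col5a1 window held 2 matches to GGGCGG, 205 bases before the start on the opposite strand and 73 bases before it on the strand of the gene. The Basp1 window held 4, at 101, 86, 60 and 56 bases before the start, the last pair overlapping. The Lrrc4 window held 1 match to CCAAT, 126 bases before the start on the opposite strand. TATAAA and TGACTCA were in none of the 3. The windows of Col5a1 and Basp1 were 76.4% and 78.8% G and C, and that of Lrrc4 was 51.2%, against a median of 52.4% over all windows. These matches describe the letters in the windows.

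Genes switched on by ERK were few in counts, and the 2 that rose in iPSC were Spry4 and Myc. Of 18 genes on this list, 4 could be tested (Spry4, Myc, Etv5 and Ccnd1), 2 rose, 0 fell and 2 did not pass. Of all genes tested, 3.88% rose and 8.34% fell. The median log2 difference of these 4 was 2.31, or 1.55 with Spry4 at its bound. Myc is also a lentiviral factor, and no difference between media was detected for it (0.02 ± 0.36, adjusted p = 0.996). Spry4, at 0 in each ESC, and Myc, with 0, 1 and 2 read pairs there, passed the filter through the iPSC. The direction of both was thus set by that filter, and the count and the median are no independent evidence. Spry4, a feedback inhibitor of the pathway, had 20, 13, 3 and 8 read pairs in iPSC in ESC/LIF, 0 in each ESC and 1 and 4 in iPSC in 2iS. It was at least 8.33-fold higher in iPSC in ESC/LIF (adjusted p = 0.0137, and 0.0560 against the 129 ESC alone, range over 13 alternatives 1.22e-06 to 0.0560), and clone 8 lay far below the other 3 clones. Its difference between media did not pass (1.75 ± 0.91, adjusted p = 0.451). Dusp6, a phosphatase that switches ERK off, had 6, 5, 7 and 4 read pairs in iPSC in ESC/LIF, 0 in each ESC and 0 and 3 in iPSC in 2iS. Spry2, another Sprouty gene, had 10, 4, 9 and 8 read pairs in iPSC in ESC/LIF, 0, 2 and 1 in ESC and 4 and 4 in iPSC in 2iS. For both genes all 4 iPSC in ESC/LIF lay above all ESC, and neither passed the filter. With no filter their adjusted p was 0.00300 and 0.0247, and in DESeq2 0.0578 and 0.250. Without the filter 4 of the 18 were higher and 0 lower, where 222 of 15163 genes were higher and 441 lower. The ETS factor Etv5 had 68.1, 129.5, 88 and 123 CPM in iPSC and 60.2, 86.8 and 124 in ESC (0.04 ± 0.37, adjusted p = 0.96), and the cyclin Ccnd1 had 107, 114, 143 and 123 in iPSC and 151, 106 and 109 in ESC (-0.02 ± 0.30, adjusted p = 0.984). The summed level of the 18 genes was 819 to 935 CPM in iPSC in ESC/LIF, 523 to 581 in iPSC in 2iS and 386 to 443 in ESC. Myc is a part of each sum, with 328 and 137 CPM in clones 1 and 17 in 2iS and at most 14.5 CPM in ESC. The place of iPSC in 2iS above ESC in this sum rests on Myc.

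The listed targets of Wnt and beta-catenin could hardly be measured. Of 16 genes listed, 6 had no read pair in the 7 libraries. The 1 that could be tested, Tcf3, encodes the helix-loop-helix factor E2A and is no Wnt target (in ESC the name is also used for Tcf7l1). No target proper on this list was thus tested. Tcf3 had 97.3, 76.2, 66 and 86.1 CPM in iPSC and 100.4, 135 and 102 in ESC (-0.49 ± 0.32, adjusted p = 0.368). Axin2, the usual reporter of the pathway, had 2, 2, 3 and 2 read pairs in iPSC and 3, 5 and 3 in ESC, and the repressor Tcf7l1 had 7, 8, 4 and 6 in iPSC and 6, 2 and 11 in ESC. Lef1, a factor that beta-catenin binds, had 0, 0, 0 and 1 in iPSC and 5, 11 and 0 in ESC. It was the 1 of 10 genes with a read pair that was lower with no filter, against 441 of 15163 over all genes. In DESeq2 Lef1 did not pass (adjusted p = 0.0892). Of 11 BMP and Id genes 0 could be tested. The inhibitor Smad7 had 7, 3, 5 and 1 read pairs in iPSC and 3, 2 and 14 in ESC, and the receptor Bmpr1a had 4, 4, 4 and 1 in iPSC and 3, 1 and 5 in ESC, and the groups overlapped for both. Among 11 genes of LIF and STAT3 signalling, 4 were tested and 0 passed in edgeR, also at an unadjusted p under 0.05 and in DESeq2, with a median log2 difference of 0.17. Tfcp2l1, a STAT3 target, had 161, 259, 236 and 123 CPM in iPSC in ESC/LIF, 161, 164 and 479.5 in ESC and 366 and 499 in iPSC in 2iS (-0.51 ± 0.38 against ESC, adjusted p = 0.436). The 129 ESC had the highest level among the ESC, and against it alone the log2 difference was -1.28 (adjusted p = 0.0306, range over 17 alternatives 0.0306 to 0.853). Between media Tfcp2l1 gave -1.14 ± 0.38 over all clones (adjusted p = 0.169). In the male clones alone, the 2 lowest in ESC/LIF, it gave -1.51 with the clone as replicate block (adjusted p = 0.0175) and -1.56 without the block (1.47e-05).

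Transcripts of the pluripotency network were counted in both groups. Of 14 naive factors, 9 were tested in edgeR and 0 passed, 3 had an unadjusted p under 0.05, and 0 of 13 passed in DESeq2. Their median log2 difference was 0.13. The summed level of the 14 genes was 1846 to 2320 CPM in iPSC in ESC/LIF and 1524 to 2325 in ESC. Zfp42, the classical marker Rex1, had 569, 488, 439.8 and 479.9 CPM in iPSC and 532, 241 and 363 in ESC (0.36 ± 0.25, adjusted p = 0.404). Tdgf1, a co-receptor of Nodal, had 238, 160.0, 203 and 357 CPM in iPSC and 381, 386 and 305 in ESC (-0.64 ± 0.27, adjusted p = 0.14). Nanog, the homeodomain factor at the centre of the naive network, had 13, 9, 8 and 3 read pairs in iPSC and 10, 8 and 22 in ESC (-1.10 ± 0.39, adjusted p = 0.0799). Zfp42 and Tdgf1 overlapped between groups, and for Nanog all iPSC lay below all ESC in CPM without passing.

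Of 12 general pluripotency genes, 11 were tested, 2 rose and 0 fell, where 3.88% of all genes tested rose. The median log2 difference was 0.93, against 0.03 over all genes tested. In DESeq2 1 of 12 rose, against 67 of 7810 over all genes. With uniquely aligned read pairs as library size 4 of 11 rose, against 246 of 2579. Pou5f1, which encodes Oct4, had 662, 701, 759 and 714 CPM in the 4 iPSC, 271, 338 and 356 in the 3 ESC and 647 and 571 in the 2 iPSC in 2iS. Both iPSC groups lay above all ESC. Its difference was 1.10 ± 0.21 in ESC/LIF (adjusted p = 0.0026, and 0.0535 against the 129 ESC alone, range over 17 alternatives 0.000101 to 0.0535). In 2iS it was 0.90 ± 0.23 (adjusted p = 0.0228), a call lost without the NOD ESC (adjusted p = 0.0733), without clone 1 in 2iS (0.219) and without clone 17 in 2iS (0.0920). Lin28a, an RNA-binding protein that blocks let-7 maturation, had 136, 213, 154 and 271 CPM in iPSC and 60.2, 57.9 and 79.9 in ESC (1.43 ± 0.35, adjusted p = 0.0158), with 5 of 16 alternatives above the threshold (adjusted p = 0.00353 to 0.204), among them those without the NOD ESC (0.0604) and without the WSB ESC (0.0506). Sox2 had 359.9, 236, 418 and 418 CPM in iPSC and 371, 396 and 472 in ESC (-0.25 ± 0.24, adjusted p = 0.565). Of the 4 lentiviral factors, Pou5f1 and Myc thus rose, and Sox2 and Klf4 did not pass. Klf4 had 185, 244, 390.3 and 135 CPM in iPSC in ESC/LIF, 120.5, 96.5 and 196 in ESC and 337 and 523 in iPSC in 2iS. It gave 0.76 ± 0.37 for ESC/LIF against ESC (adjusted p = 0.213) and 1.60 ± 0.40 for 2iS against ESC (adjusted p = 0.0204), which was lost without the NOD ESC (0.0664), clone 1 in 2iS (0.0550) or clone 17 in 2iS (0.212). Between media it gave -0.83 ± 0.35 over all clones (adjusted p = 0.324). Without the female clones, the 2 highest in ESC/LIF, it gave -1.30 with the clone as replicate block (adjusted p = 0.0392) and -1.37 without the block (1.32e-04).

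Most listed genes of the primed epiblast, the next stage of the embryo, had few or no read pairs in both groups, while Dnmt3b and Car14 were counted in every library. Of 12 genes, 3 had no read pair (Fgf5, Cer1 and T), 2 were tested and 0 passed in edgeR, with 0 at an unadjusted p under 0.05 and 0 in DESeq2. With no filter 2 of 9 were lower, against 441 of 15163 over all genes. The DNA methyltransferase Dnmt3b had 122, 68.6, 132 and 185 CPM in iPSC and 100.4, 203 and 50.9 in ESC (0.08 ± 0.43, adjusted p = 0.936), and the carbonic anhydrase Car14 had 102, 114, 88 and 36.9 in iPSC and 60.2, 86.8 and 58.1 in ESC (0.37 ± 0.40, adjusted p = 0.612). Of 9 writers and erasers of DNA methylation, 7 were tested and 0 passed in edgeR, with a median of 0.08. Among them 1 had an unadjusted p under 0.05, 0 passed in DESeq2, and 1 (Tet1) was higher with uniquely aligned read pairs as library size. The dioxygenase Tet1 had 545, 419, 500.3 and 652 CPM in iPSC in ESC/LIF, all above the 412, 299 and 371 of ESC (0.51 ± 0.22, adjusted p = 0.164), and 131 and 306 in iPSC in 2iS. Its difference between media was 1.22 ± 0.31 (adjusted p = 0.0507), and in the male clones alone 1.48 with the clone as replicate block (adjusted p = 0.0158) and 1.38 without the block (2.30e-05). Dnmt1, the maintenance enzyme, had 297, 305, 297 and 332 CPM in iPSC and 231, 260.5 and 349 in ESC (0.08 ± 0.23, adjusted p = 0.872).

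Of 19 imprinted genes, 10 were tested and 7 of these did not pass. Impact rose, Plagl1 and Kcnq1ot1 fell, and of all genes tested 3.88% rose and 8.34% fell. The median of the 10 was -0.68. With no filter 3 of 17 were higher and 5 lower, where 222 and 441 of 15163 genes were. With uniquely aligned read pairs as library size 3 of 10 were higher and 2 lower, where 246 and 142 of 2579 genes were. Plagl1, a zinc finger factor of growth control, had 29.2, 38.1, 60.5 and 49.2 CPM in iPSC in ESC/LIF, 542, 106 and 429 in ESC and 93.7 and 217 in iPSC in 2iS. All iPSC in ESC/LIF lay below all ESC, of which WSB was the lowest, and the difference was -3.05 ± 0.47 (adjusted p = 6.44e-04). Kcnq1ot1, the long RNA of the Kcnq1 imprinted domain, had 5, 6, 1 and 3 read pairs in iPSC and 16, 12 and 13 in ESC (-2.25 ± 0.51, adjusted p = 0.00908), with 3 of 16 alternatives above the threshold (adjusted p = 0.000708 to 0.304), among them that without the NOD ESC (0.0646). Impact, a regulator of the kinase GCN2, had 19, 25, 34 and 9 read pairs in iPSC and 3, 2 and 4 in ESC (2.40 ± 0.46, adjusted p = 0.00293, and 0.0977 with male iPSC only, range over 16 alternatives 2.27e-05 to 0.0977).

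Transcripts of the imprinted Dlk1-Dio3 region varied among the clones themselves. Rtl1, a gene of that region, had 14, 99, 139 and 1 read pairs in clones 1, 5, 8 and 17, 0 and 0 in clones 1 and 17 in 2iS and 129, 47 and 53 in ESC (-0.79 ± 0.71 for ESC/LIF against ESC, adjusted p = 0.53). Meg3, a noncoding RNA of the same region, had 6, 22, 28 and 0 in these clones in ESC/LIF, 0 and 0 in 2iS and 38, 21 and 40 in ESC (-1.67 ± 0.55, adjusted p = 0.0623). Both female clones held more read pairs of each gene than both male clones, and clone 17 was at or near 0. Peg10, an imprinted gene of retroviral origin on another chromosome, had 233, 373, 445 and 295 CPM in iPSC in ESC/LIF, 120.5, 289 and 87.2 in ESC and 0 and 3 read pairs in the clones in 2iS. It gave 1.03 ± 0.37 for ESC/LIF against ESC (adjusted p = 0.0891), -3.57 ± 0.79 for 2iS against ESC (adjusted p = 0.0105) and 4.59 ± 0.71 between media (adjusted p = 0.00161). The second was lost without clone 1 in 2iS (adjusted p = 0.123), and the third became 3.74 (adjusted p = 0.0499) without clone 1 and 8.45 (0.00838) without clone 17 in 2iS.

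Xist and Tsix, overlapping noncoding RNAs of X inactivation on opposite strands, were both lower in iPSC, although 2 of the 4 clones were female and all ESC male. Xist had 2369, 1729, 2919 and 1550.4 CPM in iPSC in ESC/LIF and 5953, 5885 and 4330.3 in ESC (-1.35 ± 0.22, adjusted p = 8.64e-04), and 1097 and 1142 in the 2 male clones in 2iS. Tsix had 24.3, 129.5, 203 and 49.2 CPM in iPSC and 261, 241 and 479.5 in ESC (-1.69 ± 0.49, adjusted p = 0.037), with 8 of 16 alternatives above the threshold (adjusted p = 4.46e-05 to 0.145). The calls lost include those without the NOD ESC (0.0573), the 129 ESC (0.145), clone 1 (0.0532), clone 5 (0.0650) and clone 17 (0.0804), and without clone 8 the difference was -2.38. For Tsix the female clones 5 and 8 lay above the male clones, and for Xist clone 8 was the highest and clone 17 the lowest. The exons of the pair overlap over 1980 bases, and their read pairs cannot be told apart without the strand setting.

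Defining markers of the primitive endoderm, an extraembryonic lineage, were at or near 0 in both groups, while listed genes that other cells also make were not. Of 12 primitive endoderm genes, 5 had no read pair in the 7 libraries (Gata6, Sox17, Sox7, Foxa2 and Pdgfra), and the defining genes Gata4 and Dab2 had 1 each. Of the 12, 2 were tested and 0 passed in edgeR, both had an unadjusted p under 0.05, and 0 passed in DESeq2. The summed level of the 12 was 311 to 412 CPM in iPSC and 299 to 625 in ESC, almost all from laminins, type IV collagens and Sparc. Sparc, which fibroblasts also make, had 43.8, 83.8, 143 and 61.5 CPM in iPSC and 110.4, 193 and 283 in ESC (-1.26 ± 0.42, adjusted p = 0.062), and passed in 6 of 16 alternatives (adjusted p = 0.0189 to 0.268), such as those without the NOD ESC (0.0361) and without clone 8 (0.0238). The laminin Lama1 had 151, 206, 159 and 123 CPM in iPSC and 40.2, 0 and 124 in ESC (1.39 ± 0.55, adjusted p = 0.122, and 2.94 without the 129 ESC with an adjusted p of 0.00716, range over 16 alternatives 0.00716 to 0.691). None of 8 trophoblast, 6 neural or 12 2-cell-like genes could be tested. The trophoblast factor Eomes had 4, 0, 2 and 0 read pairs in iPSC and 3, 5 and 5 in ESC, and Tfap2c had 2, 5, 4 and 2 in iPSC and 2, 6 and 11 in ESC. The neural genes Tubb3 and Nes had at most 13 read pairs in any library, and Pax6 had 0 in each iPSC and 2, 1 and 0 in ESC. Tcstv1 had 6, 0 and 0 in ESC and 0 in each iPSC, and Zscan4a, one of several near-identical copies whose counts are uncertain, had 0, 0, 0 and 1 in iPSC and 0 in each ESC. Of 9 germline genes only Sycp1, a protein of the synaptonemal complex of meiosis, was tested, and it rose. It had 209, 168, 396 and 394 CPM in iPSC and 20.08, 28.9 and 131 in ESC (2.09 ± 0.51, adjusted p = 0.0145). The 129 ESC lay well above the NOD and WSB ESC, and against it alone the difference was 1.12 (adjusted p = 0.215, range over 16 alternatives 1.78e-07 to 0.215). Without the NOD ESC the adjusted p was 0.0635, and without the 129 ESC the difference was 3.46.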

How the data were processed

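The deposited files hold raw counts of read pairs per gene for 23420 genes. According to the study's methods and the submitters' processing notes, the authors trimmed stranded, paired reads with Trimmomatic, aligned them to GRCm38 with TopHat2 2.1.1 and counted them per gene with HTSeq, and DESeq2 is also named. The strand setting of HTSeq is not given in the sources used here. The summary entries of HTSeq (no feature, ambiguous and the like) were left out of library sizes and tests, which kept 1.15% to 1.50% of the uniquely aligned pairs in the 7 libraries.

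Libraries were grouped by their titles. Counts were tested with edgeR 4.0.16 (quasi-likelihood, TMM scaling, filter on low counts by group size, R 4.3.3), with adjusted p-values by Benjamini-Hochberg over all genes tested and a threshold of 0.05. iPSC in ESC/LIF and ESC in 2iS were fitted on 7 libraries, and the comparisons with iPSC in 2iS on 9. CPM are per 1000000 of the TMM-scaled library. Positions and exons are those of GENCODE M21 on GRCm38, in which 98.4% of the genes were found. The tests were checked on simulated data. Alternatives were DESeq2 1.42.0, other scalings, filters, libraries and covariates.

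Members and gene lists were chosen with earlier results of these data known. The rule named 5 marker genes, 3 further genes of the study's text, the 8 genes per direction with the largest change and no overlap, up to 4 called members of each of 18 lists or otherwise the 2 most abundant, and genes on the opposite strand of these. A gene that this rule named is not reported here. Ddx3y, Fn1, Vim, Col1a2, Col3a1, Tnc, Ccdc80, Etv5, Ccnd1, Dusp6, Spry2, Axin2, Lef1, Nanog, Sox2, Pax6, Rtl1, Meg3 and Peg10 fall outside it and were chosen after their values were seen. Clones 1 and 17 are the same cell lines in both media, which pairs them, and the correlation of their deviations from the group means was 0.0802 over 3008 genes.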

Additional observations from a re-analysis of the deposited data

Results flagged for a closer look

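In the 4 iPSC in ESC/LIF, 1 library stood apart from the other 3 in 7 of 51 values tested by the gap to its neighbour as a share of the range, where chance gives about 1 in 20 for values that are not tied. Clone 1 was high for Ank1, at 555 CPM, and low for Gm15401 on the opposite strand of Tcf7l1, at 803 CPM. Clone 8 was low for Spry4, at 16.5 CPM. In the other 4 the library was the only one with read pairs, between 1 and 3 of them, and the other 3 were tied at 0, so that the chance rate does not apply: Col1a1 in clone 1 (4.86 CPM), Col13a1 in clone 8 (5.50 CPM), Col5a1 in clone 5 (22.9 CPM) and Zscan4a in clone 17 (12.3 CPM).

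The difference from ESC in 2iS was not the same for iPSC in ESC/LIF and iPSC in 2iS in 7 of 42 named genes, by the test between the media. The log2 differences, ESC/LIF over 2iS, were 5.67 for Nphs1, 5.46 for Ank1, 4.82 for Col6a4, 3.85 for Mterfd2, 3.55 for Il17d, 2.38 for Col18a1 and 1.49 for Basp1, with adjusted p between 0.000130 and 0.0248 in edgeR. Over all genes tested, 64 of 3008 (2.13%) differed between the media. The study's text names 5 of the 7 for this transfer on these libraries, and Mterfd2 and Col6a4 were named for their high level in the same ESC/LIF libraries, so that neither the share nor the direction is independent evidence. Only 2 clones were sequenced in 2iS, and when either was left out Nphs1 and Mterfd2 alone of the 7 passed in both cases.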

How the results depend on the processing

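The count of 315 genes between iPSC in ESC/LIF and ESC in 2iS became 663 without the filter, 122 where every library had to hold 10 counts, 132 for genes without exons on the opposite strand, 178 with male iPSC only and 192 against the 129 ESC only. It was 274 in DESeq2 and 217 to 314 when 1 library was left out. With groups set by source name and characteristics it was 0 in edgeR, with 122 genes at an unadjusted p under 0.05. That grouping puts the 2 male NOD iPSC, with 5.59% and 5.62% of uniquely aligned pairs on genes, in the iPSC ESC/LIF group. The count of 250 for iPSC in 2iS against ESC, 8.31% of the genes tested, became 145 (2.94%) in DESeq2, 99 (9%) with the filter of 10 counts, 122 (8.20%) without opposite-strand genes, and 42 without clone 1 or 68 without clone 17 in 2iS. With 1 library left out, 1.08% (without clone 1) to 11.0% (without the 129 ESC) of the genes tested were called. The count of 64 between media became 141 without the filter, 24 with that of 10 counts, 34 without opposite-strand genes, 12 to 66 when 1 library was left out, 102 with the clone as replicate block in the male clones, and 192 in the same libraries without the block, which was added once the data had been seen. The causes were not tested, beyond the smaller number of genes or libraries in the fits concerned. Nphs1, Ank1, Il17d, Col18a1, Basp1, Mterfd2, Col6a4 and Peg10, called between media over all clones, passed in the male clones both with and without the block. Among named genes not called over all clones, Kif3c, Klf4, Sycp1, Tet1 and Tfcp2l1 passed between media in the male clones with and without the block. Nkx6-3, Plagl1, Spry4 and Xist passed only without it. The block changed no other call of a named gene in these libraries. For Sycp1 it gave 2.02 (adjusted p = 0.0108), against 1.88 (1.39e-04) without it.

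The 26 named genes called between iPSC in ESC/LIF and ESC had 399 values under alternatives of this comparison. They kept their direction in all 399 and their call in 373, and 17 genes kept it in every one. The grouping by source name and characteristics, in which 0 genes were called, and the fit without opposite-strand genes are not among the 399. Most of the 26 were named for their call in these data, so that the kept direction is not independent evidence. The share of read pairs on genes was higher in iPSC in each alternative, by 0.103 percentage points with all read pairs as the denominator and by 0.149 to 0.251 with 1 library left out. A count of 0 allows up to 5.00 CPM over the 4 iPSC and 8.80 over the 3 ESC, which limits comparisons of genes near these levels.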

Other observations

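Further imprinted genes, chosen after their values were seen and reported as values only, differed among the libraries of a group. Peg3, a zinc finger gene, had 10, 24, 22 and 1 read pairs in iPSC in ESC/LIF (clones 1, 5, 8 and 17), 2 and 4 in iPSC in 2iS (clones 1 and 17) and 2, 0 and 3 in ESC (NOD, WSB and 129), with clone 17 at the level of ESC. Grb10, an adaptor that restrains growth factor receptors, had 19, 3, 6 and 7, 0 and 23 and 10, 6 and 57 read pairs in the same 3 groups, and the 129 ESC stood above the other ESC. In 2iS, clone 1 had 0 read pairs of Grb10 and clone 17 had 23. Cdkn1c, an inhibitor of the cell cycle, had 13, 2, 3 and 4, 0 and 0 and 0, 1 and 1 read pairs.

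Id1, another inhibitor of DNA binding and a target of BMP, had 15, 3, 2 and 0 read pairs in iPSC in ESC/LIF, 0 and 1 in iPSC in 2iS and 0, 1 and 0 in ESC, and most of them came from clone 1, which was also the highest for Ank1.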
